A study of Rattus norvegicus with 6 samples.

Results

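The osteoblast transcription factors examined here are 8 genes, Runx2, Sp7, Dlx5, Dlx3, Msx1, Msx2, Twist1 and Runx1. Their probes were found by matching the gene name in the array's annotation, a rule that reads no measured value. They are 8 of the 34911 genes named on the array and are read by 9 of its 45598 probes. Runx1 has 2 probes and every other member has 1. On cells grown on the tantalum-modified surface, Dlx5 was lower and was the 1 member that passed the test, while the other 7 did not pass it.

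Marrow stromal cells of the rat were profiled on 6 one-colour expression arrays, with total RNA labelled with the dye Cy3. The cells were taken from tibia marrow and grown for 7 days on titanium whose surface had been modified with tantalum (Ta, n = 3 arrays) or on simple titanium (Ti, n = 3 arrays), and the Ti cultures are the comparison group. Marrow stromal cells are the adherent marrow fraction that can turn into bone-forming cells, and tantalum and titanium are metals used for bone implants. The series describes 3 independent experiments per group; the strain, sex and age of the rats and any bone-inducing supplement in the medium are not given in the sources used here.

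The 8 genes encode DNA-binding proteins that help steer mesenchymal cells towards or away from the osteoblast, the cell that lays down bone. Runx2 is the factor without which osteoblasts do not form, and Sp7 (osterix) acts after it. The homeodomain proteins of the Dlx and Msx families act downstream of bone morphogenetic protein (BMP) signals, with Dlx proteins able to activate and Msx proteins able to repress bone gene promoters. Twist1, a basic helix-loop-helix (bHLH) protein, can hold Runx2 inactive, and Runx1, best known from blood stem cells, is a paralog of Runx2 that is also made in skeletal progenitors.

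The share of spots well above background, the scanner software's detection call, was 62.7% on the lowest array and 65.9% on the highest. The 75th percentile of the processed signal, which the scaling evens out, ran from 1848 on Ta replicate 3 to 2388 on Ti replicate 1. The limma fit tested 19601 genes, each by its brightest probe, and 808 of them had an adjusted p under 0.05 after Benjamini-Hochberg adjustment. On Ta, 520 of them were higher and 288 lower. The higher share of the called genes was 64.4%, and 53.5% with scaling to the array median. The 6 arrays shared 1 slide and 1 scan. In slide row 1 lay the Ta arrays with Ti replicate 1, and in row 2 lay Ti replicates 2 and 3. Of the 10 markers listed for marrow stromal cells, 9 were detected, among them Thy1, Eng, Pdgfra and Vim on every array, and Lepr was detected on none (0 of 6 arrays). Ptprc, the leukocyte antigen CD45, which stromal cells should lack, was well above background on all arrays, with scaled log2 signals of 11.49, 10.83 and 10.42 on Ta and 12.06, 11.64 and 12.30 on Ti.

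Each value below is read by a probe of 60 bases, whose second part, bases 31 to 60, is given here because it shows which stretch of the transcript each measurement rests on. The 2 Runx1 probes lie at different places and gave different results. Capitals mark AATAAA, the letters of the common polyadenylation signal, searched on the printed strand. The positions are the annotation's own; the file headers name the rat build rn4, and this was not checked against a genome. Whether a probe lies in coding sequence or in a UTR was not analysed here.
Runx2, chr9:12025100-12025159: aaattgaattatttggcattttctcccctc
Sp7, chr7:141109948-141110007: acccgaagcgaccacttgagcaaacatcag
Dlx5, chr4:31778601-31778660: aatggtgccttgaaatctatgacctcaact
Dlx3, chr10:83807487-83807546: cttactggaccagtctttatatataatgtt
Msx1, chr14:78260990-78261049: ttcgtggctctcaaacatcccttttgaagg
Msx2, chr17:17248562-17248621: ctatatttgaaagattcttcaacagtccat
Twist1, chr6:52607474-52607533: aagaggtcttgccaatcagtcactgatagg
Runx1 brighter probe, chr11:32623591-32623650: tttagtaatgctgtgAATAAAagaaagatt
Runx1 second probe, chr11:32620076-32620135: ttctctccacttgtttattttagatttaaa

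The match to AATAAA was found in 1 of the 9 probes, the brighter Runx1 probe, and searching all 60 bases of each probe gave the same number. Probes of different sequence bind with different strength, so the levels of different genes are not ranked against each other below. The signals are on a log2 scale after each array was set to a common 75th percentile, and a difference is the Ta mean minus the Ti mean. None of the 108 spots of these probes (18 on each of the 6 arrays) carried an outlier mark, which is 0 of 108.

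Across the 8 members the difference ran from −0.96 to 0.54 on the log2 scale, with a median of −0.12 against 0.03 over all genes tested. By limma's adjusted p, 1 of 8 was called, against 4.12% of all genes in either direction, 1.47% in the lower and 2.65% in the higher direction. The groups did not overlap in 5 of the 8 members, 4 lower and 1 higher on Ta. Of all genes, 35.8% had no overlap, 16.3% with Ta lower and 19.5% with Ta higher. At an unadjusted p under 0.05 there were 4 members, Runx2, Dlx5, Msx2 and Twist1, 3 of them lower on Ta, against 30.0% of all genes, and 13.2% in the lower direction. A difference below 0 was found in 5 of the 8 members and in 46.2% of all genes. In bulk RNA, fewer cells of a type and less RNA per cell cannot be told apart, and this holds for each value that follows.

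**Figure D1:**
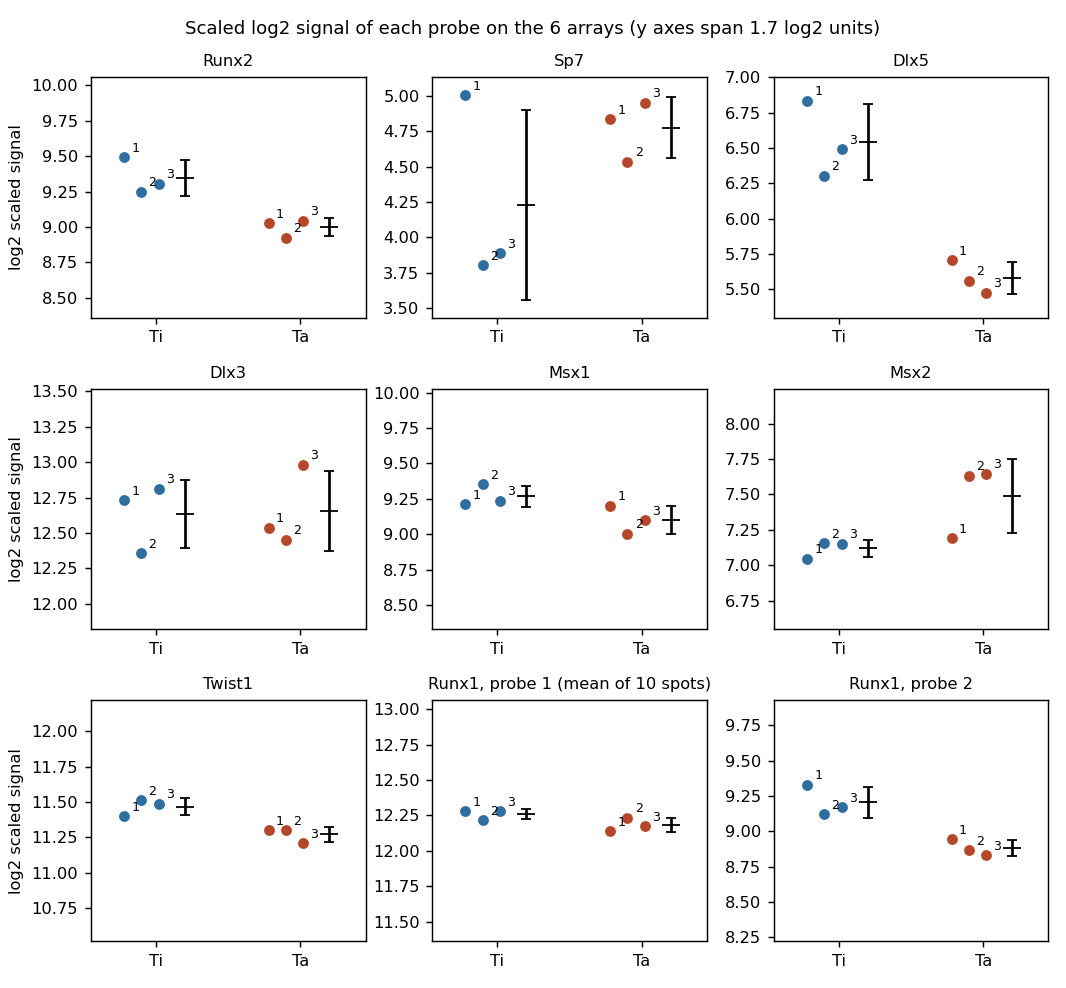
Scaled log2 signal (y axis, 1.7 log2 units in every panel) of the 9 probes on Ti and Ta arrays; points are arrays numbered by replicate, and bars are the group mean ± SD (n = 3). The Ta and Ti points of Dlx5 stand farthest apart, with 0.60 between the highest Ta and the lowest Ti array, and Sp7 is high on Ti replicate 1 alone among the Ti arrays.

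The plot of the 9 probes by array shows both the distance between groups and the arrays that set the spread. Runx2 had scaled log2 signals of 9.03, 8.93 and 9.04 on Ta and 9.49, 9.25 and 9.30 on Ti. All Ta arrays lay below all Ti arrays, by 0.21 at the closest, and Ti replicate 1 was the highest of the 6. The difference was −0.35 ± 0.10 (SE, n = 3 per group, 95% interval −0.58 to −0.12), and Runx2 did not pass the threshold (limma, adjusted p = 0.0792). With each array left out in turn it stayed between −0.40 and −0.28.

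Sp7 (osterix), the zinc finger factor that acts after Runx2, gave a weak signal. It was detected above background on all 3 Ta arrays but, of the Ti arrays, on replicate 1 alone (1 of 3). The scaled log2 signals were 4.84, 4.53 and 4.95 on Ta and 5.0, 3.80 and 3.89 on Ti. The groups overlapped, since Ti replicate 1 was the highest of all 6 arrays while the other Ti arrays were the lowest. The difference was 0.54 ± 0.33 (SE, n = 3 per group) with a 95% interval of −0.27 to 1.35, and Sp7 did not pass the test (limma, adjusted p = 0.323). Within slide row 1, where Ti replicate 1 is the only Ti array, the difference was −0.23, the opposite sign. Without Ti replicate 1 it was 0.93 (limma, adjusted p = 0.123).

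The gene starts of Runx2 are the place where a match to the family's own motif could be looked for, since RUNX proteins bind the promoter of Runx2 itself. RefSeq (build GRCr8) supplied windows before the start for 5 members, 6 windows in all, of which the 250 bases upstream were searched on both strands. The windows of the 2 Runx2 starts are shown, both on the plus strand, with the RUNX letters TGTGGT or, on the other strand, ACCACA in capitals.
Runx2 start 1, chr9:23664808-23665057: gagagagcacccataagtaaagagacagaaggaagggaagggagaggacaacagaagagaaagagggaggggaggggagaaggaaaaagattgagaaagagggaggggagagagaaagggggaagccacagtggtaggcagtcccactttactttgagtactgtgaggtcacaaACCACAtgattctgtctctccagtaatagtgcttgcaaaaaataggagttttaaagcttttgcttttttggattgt
Runx2 start 2, chr9:23742990-23743239: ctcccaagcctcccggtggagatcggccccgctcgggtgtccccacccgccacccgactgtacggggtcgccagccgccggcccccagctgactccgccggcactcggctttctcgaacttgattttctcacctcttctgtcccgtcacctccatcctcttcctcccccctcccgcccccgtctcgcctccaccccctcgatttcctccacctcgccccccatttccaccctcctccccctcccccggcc

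Start 1 of Runx2 held 1 RUNX match and start 2 held none (0), and the windows of Msx1, Msx2, Twist1 and Runx1 held none (0) either. Of the 33469 windows searched, 14.5% held this motif. The core of the homeodomain site, TAATT or AATTA, was in 0 of the 6 member windows and in 26.2% of all windows. The E-box CANNTG, bound by bHLH proteins such as Twist1, reads the same on both strands and occurred once in each Runx2 window, in Msx2 and in Runx1, against 65.5% of all windows. The GC box GGGCGG or CCGCCC, bound by SP proteins, occurred once in Runx2 start 2, Msx1 and Msx2 and 2 times in Twist1, against 30.5% of all windows. In Runx2 start 1 the E-box shares bases with the RUNX match, and no other matches of different motifs overlapped in the 6 windows. A match describes the letters of a window and says nothing of binding.

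Dlx5, the homeodomain factor that responds early to BMP signals and can activate Runx2, was lower on Ta. Its scaled log2 signals were 5.71, 5.56 and 5.48 on Ta and 6.83, 6.30 and 6.49 on Ti. Every Ta array lay below every Ti array, with 0.60 between the nearest 2, and Ti replicate 1 was again the highest. The difference was −0.96 ± 0.15 (SE, n = 3 per group, 95% interval −1.33 to −0.59), which is a signal 1.95-fold higher on Ti (limma, adjusted p = 0.0424). The probe was well above background on all 6 arrays.

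The fall in Dlx5 kept its direction with each array left out, between −1.08 and −0.82, but not its call. The limma adjusted p was 0.165 without Ta replicate 2, 0.130 without Ta replicate 3, 0.123 without Ti replicate 1 and 0.160 without Ti replicate 3. With a block for slide row, where Ti replicate 1 is the only Ti array that shares a row with Ta, the difference was −1.25 and the adjusted p 0.165, with the replicate number as a block the adjusted p was 0.0729, and with no filter on dim probes it was 0.119. After normexp background correction, here with an offset of 50 added to the signals, the difference was −0.38 and the call was kept (limma, adjusted p = 0.0268).

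Dlx3, a second member of the Dlx family, which is active in skin and teeth as well as bone, had scaled log2 signals of 12.54, 12.45 and 12.98 on Ta and 12.73, 12.36 and 12.81 on Ti. The groups overlapped throughout, with Ta replicate 3 the highest array and Ti replicate 2 the lowest. The difference was 0.02 ± 0.19 (SE, n = 3 per group) with a 95% interval of −0.43 to 0.48, so changes in either direction smaller than these bounds could not be told from 0 (limma, adjusted p = 0.944). Its sign turned with median scaling, to −0.01. The intervals of Dlx5 and Dlx3, −1.33 to −0.59 and −0.43 to 0.48, did not overlap, and the difference between these genes was not itself tested.

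**Figure D2:**
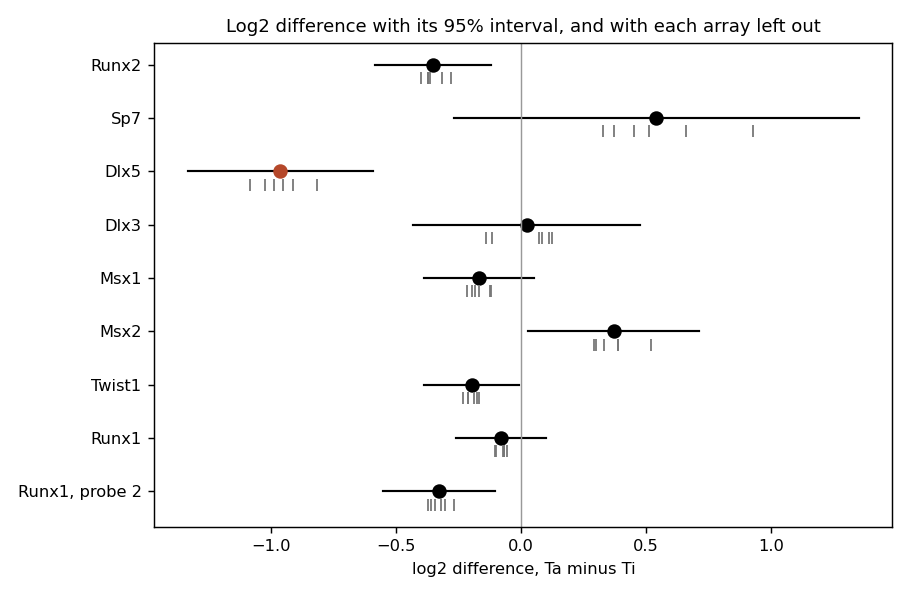
Log2 difference, Ta minus Ti (x axis), of each member and of the second Runx1 probe; points with lines are the difference with its 95% interval, the red point passed the adjusted threshold, and grey ticks are the differences with 1 array left out. The ticks of Dlx5 lie between −1.08 and −0.82, and those of Dlx3 lie on both sides of 0.

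Msx1 and Msx2, paralogs that act as repressors in bone and tooth development, differed in opposite directions, and neither passed the test. Msx1 had scaled log2 signals of 9.20, 9.0 and 9.10 on Ta and 9.21, 9.35 and 9.23 on Ti. Ta lay below Ti on every array, but by 0.011 at the closest, with Ta replicate 1 next to Ti replicate 1. The difference of Msx1 was −0.17 ± 0.09 (SE, n = 3 per group, 95% interval −0.38 to 0.05; limma, adjusted p = 0.267).

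Msx2 had scaled log2 signals of 7.19, 7.63 and 7.65 on Ta and 7.05, 7.16 and 7.15 on Ti. It was the only member with all Ta arrays above all Ti arrays, as in 19.5% of all genes. Ta replicates 2 and 3 were close together and high, while Ta replicate 1 was within 0.034 of the nearest Ti array. The difference was 0.37 ± 0.14 (SE, n = 3 per group, 95% interval 0.03 to 0.71; limma, adjusted p = 0.144). Without Ta replicate 1 it was 0.52 and passed the threshold (limma, adjusted p = 0.0208).

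Twist1, the bHLH factor that restrains Runx2, had scaled log2 signals of 11.30, 11.30 and 11.21 on Ta and 11.40, 11.51 and 11.49 on Ti. All Ta arrays lay below all Ti arrays, by 0.098 at the closest, and the arrays of a group were close to each other. The difference was −0.20 ± 0.08 (SE, n = 3 per group, 95% interval −0.39 to −0.01), a small one that did not pass (limma, adjusted p = 0.157). Its paralog Twist2 lay the other way, with 8.97, 9.0 and 8.92 on Ta and 8.48, 8.64 and 8.79 on Ti. Every Ta array of Twist2 was above every Ti array, and Twist2 did not pass the test either (limma, difference 0.33, adjusted p = 0.096).

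The brighter Runx1 probe is printed 10 times on each array, and every other member probe once. The mean scaled log2 signals of these spots were 12.14, 12.23 and 12.17 on Ta and 12.28, 12.22 and 12.28 on Ti. The groups overlapped, since Ta replicate 2 was above Ti replicate 2. The difference was −0.08 ± 0.07 (SE, n = 3 per group, 95% interval −0.26 to 0.10; limma, adjusted p = 0.522). The SD among the 10 spots of an array was between 0.068 and 0.094.

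**Figure D3:**
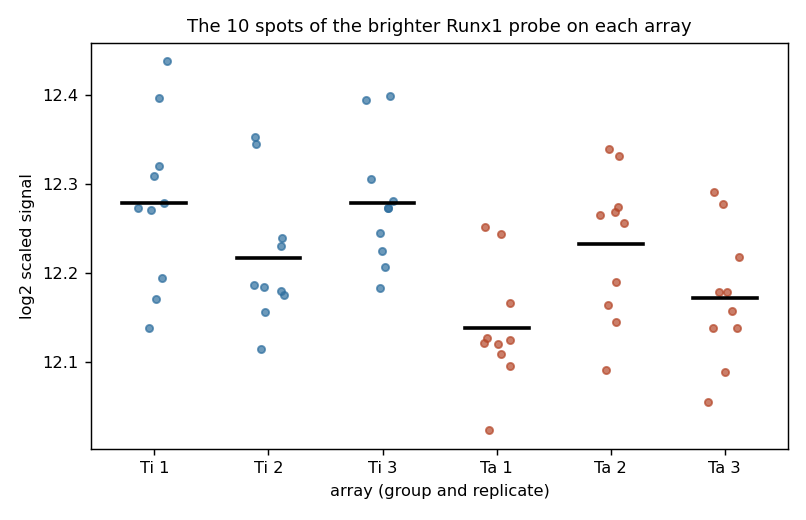
Scaled log2 signal (y axis) of the 10 spots of the brighter Runx1 probe on each array (x axis); points are spots and the black lines are array means. The means lie between 12.14 and 12.28, and the spots of Ta and Ti arrays cover much of the same range.

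In the plot of the Runx1 spots, the lowest spot is on Ta replicate 1 (12.02) and the highest on Ti replicate 1 (12.44), and the remaining arrays lie between them. The second Runx1 probe, fitted among all 25756 probes, had scaled log2 signals of 8.94, 8.87 and 8.83 on Ta and 9.33, 9.12 and 9.17 on Ti. All Ta arrays lay below all Ti arrays, by 0.18 at the closest. The difference of this probe was −0.33 ± 0.09 (SE, n = 3 per group, 95% interval −0.55 to −0.10; limma, adjusted p = 0.0841), where 4.31% of all probes were called, and 1.49% were called lower.

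The 2 Runx1 probes thus gave differences of −0.08 and −0.33. The log2 ratio of the second probe to the brighter one within an array, which removes the scaling between arrays, was −3.20, −3.37 and −3.34 on Ta and −2.95, −3.10 and −3.11 on Ti. The Ta ratios lay below the Ti ratios, by −0.25 between the group means. This ratio was chosen after its values were seen, so it is a description. An exact permutation test of the ratio over the 10 splits of the arrays gave p = 0.1. That is the lowest value such a test can reach here, and it is no support. The annotation ties the brighter probe to NM_017325 and the second one to the predicted transcript XM_017598053, and whether the probes read different transcripts was not tested.

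The members did not share a single profile over the 6 arrays. After each gene was centred on its own mean, the closest pair was Msx1 and Twist1, with a root mean square difference of 0.071, and the farthest was Sp7 and Dlx5 at 0.80. Runx2 was 0.33 from Dlx5 and 0.15 from Twist1. Genes with small differences between groups are close by this measure whatever their direction. These are descriptions over 6 arrays, with no test.

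By the same measure, the genes whose profile was closest to that of Dlx5 were Tlcd4 (0.064), Itga7 (0.097) and Ece2 (0.11). Their limma differences of −0.95, −0.94 and −1.09 (adjusted p = 0.0416, 0.0465 and 0.0453) follow from a choice by likeness to a called gene and are no separate support for it. The closest to Runx2 were Retreg1 (0.039), Pitpnm2 (0.041) and Plekhf1 (0.042), with differences that did not pass (limma, adjusted p = 0.112, 0.0983 and 0.0547). The closest to Msx2 were Sp4 (0.021), Dlgap5 (0.027) and Rrm1 (0.031), which did not pass either (limma, adjusted p = 0.128, 0.180 and 0.127).

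The profiles closest to Sp7 were those of Tmem158, Nalf2 and Naip5, at root mean square differences of 0.10, 0.11 and 0.15. The nearest gene to Sp7 was farther away than the nearest gene to any other member. For Dlx3 they were Slc22a6, Ndufs4 and Glyatl3, for Msx1 Cers5, Rad9b and Fat4, for Twist1 Csnk1a1, Stxbp6 and Rbm5, and for Runx1 Ctcf, Zfp182 and Zfp275. The limma adjusted p of these 15 genes lay between 0.155 (Stxbp6) and 0.981 (Glyatl3).

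Partners and regulators of the RUNX proteins were listed as 25 genes, all of which were tested, and 0 passed in either direction (limma; 7 at an unadjusted p under 0.05). Their median difference was 0.02, against 0.03 over all genes. Cbfb, the subunit that RUNX proteins need for firm DNA binding, had scaled log2 signals of 10.51, 10.32 and 10.25 on Ta and 10.82, 10.48 and 10.80 on Ti, with overlap between Ta replicate 1 and Ti replicate 2 (limma, difference −0.34, adjusted p = 0.139). Runx3, the remaining RUNX gene, was at 8.23, 8.43 and 8.56 on Ta and 7.85, 8.01 and 7.70 on Ti. Every Ta array of Runx3 was above every Ti array, and the difference of 0.55 did not pass (limma, adjusted p = 0.0625). A second Runx3 probe gave 0.42 (limma, adjusted p = 0.208). Rb1, the retinoblastoma protein that can bind Runx2, differed by −0.71 (limma, adjusted p = 0.0945).

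Among 30 other homeobox genes of skeletal cells, 20 were tested, 1 rose and 1 fell. Hoxc10 rose by 0.54 and Hoxa13 fell by 0.82 on the log2 scale (limma, adjusted p = 0.0462 and 0.0438), and a second Hoxc10 probe gave 0.71. The paralogs Dlx1, Dlx2 and Msx3 were among 7 genes detected on none (0) of the arrays, and Dlx6, the neighbour of Dlx5, was not matched to a probe by name and was not analysed here. Of 19 bHLH and ID genes, 16 were tested and 0 passed (limma; 7 unadjusted), with a median of −0.10. The 2 with the widest differences were Hand2 (−1.17, detected on 1 of 3 Ta arrays) and Bhlhe41 (−0.72), with limma adjusted p of 0.164 and 0.112. A second Bhlhe41 probe gave −0.10 (limma, adjusted p = 0.787).

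Of 36 other transcription factors of osteoblasts, 32 were tested, with a median of −0.08. Fosl2, an AP-1 subunit of bone cells, rose by 0.85 (limma, adjusted p = 0.0481), and its other probes gave 0.64 and 0.82. Nfatc2, a calcineurin-dependent factor, was not well above background on Ta (0 of 3 arrays) and was lower there (limma, adjusted p = 0.0397 for the measured difference). Its Ti mean was 2.26-fold above the lowest signals detected on the Ta arrays. Undetected signals can lie above such a floor, as those of Sp7 did on Ti, so this is not a strict bound. It entered the test through the Ti arrays alone, where it is high, and its Ta values are not above background.

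BMP signalling, which lies above the Dlx and Msx genes, was listed as 18 genes, of which 16 were tested. Nog, the secreted BMP antagonist noggin, was the 1 gene that rose, with 4.66, 4.85 and 4.35 on Ta and 3.65, 3.79 and 3.48 on Ti (limma, difference 0.98, adjusted p = 0.0424). All Ta arrays of Nog were above all Ti arrays, but on Ti it was detected on only 1 of 3. Grem1, of the same list, did not pass by its brightest probe (limma, difference 0.17, adjusted p = 0.199). Its other probe passed in the fit of all probes (limma, difference 0.42, adjusted p = 0.0449). The median of the list was 0.10, with 7 genes below 0 and 9 above, and 0 genes fell past the threshold.

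Bone matrix proteins and osteoblast products, some of them targets of Runx2 and Sp7, were listed as 32 genes. Of the 25 tested, 0 rose and 2 fell, with a median of −0.07. Tnfrsf11b, the osteoclast inhibitor osteoprotegerin, fell by 1.73, and Col5a1, a fibrillar collagen chain, fell by 0.54 (limma, adjusted p = 0.0457 and 0.0453). Col1a1, the main bone collagen chain, had a difference of −0.07 and did not pass, with overlap between the groups. A second Col1a1 probe gave the opposite sign (limma, difference 0.13, adjusted p = 0.576).

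Alpl, the phosphatase of mineralising cells, had scaled log2 signals of 7.25, 7.31 and 7.72 on Ta and 7.14, 6.78 and 6.90 on Ti. On this brighter Alpl probe all Ta arrays were above all Ti arrays, and Alpl did not pass the test (limma, difference 0.49, adjusted p = 0.109). On the second Alpl probe the groups overlapped (limma, difference 0.41, adjusted p = 0.218). Spp1 (osteopontin) overlapped between groups, with a difference of −0.36 (limma, adjusted p = 0.423). Several later markers were seen on few arrays or none: Ibsp was well above background on 2 Ta arrays and 0 Ti arrays, Bglap (osteocalcin) on 1 of each group, and Phex, Dmp1, Sost, Dkk1 and Tnfsf11 on none (0 of 6). Mepe and Ifitm5 were detected on all 6 arrays. Mepe, a matrix protein of osteocytes, had all Ta arrays below all Ti arrays and did not pass (limma, difference −1.01, adjusted p = 0.0529).

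**Figure D4:**
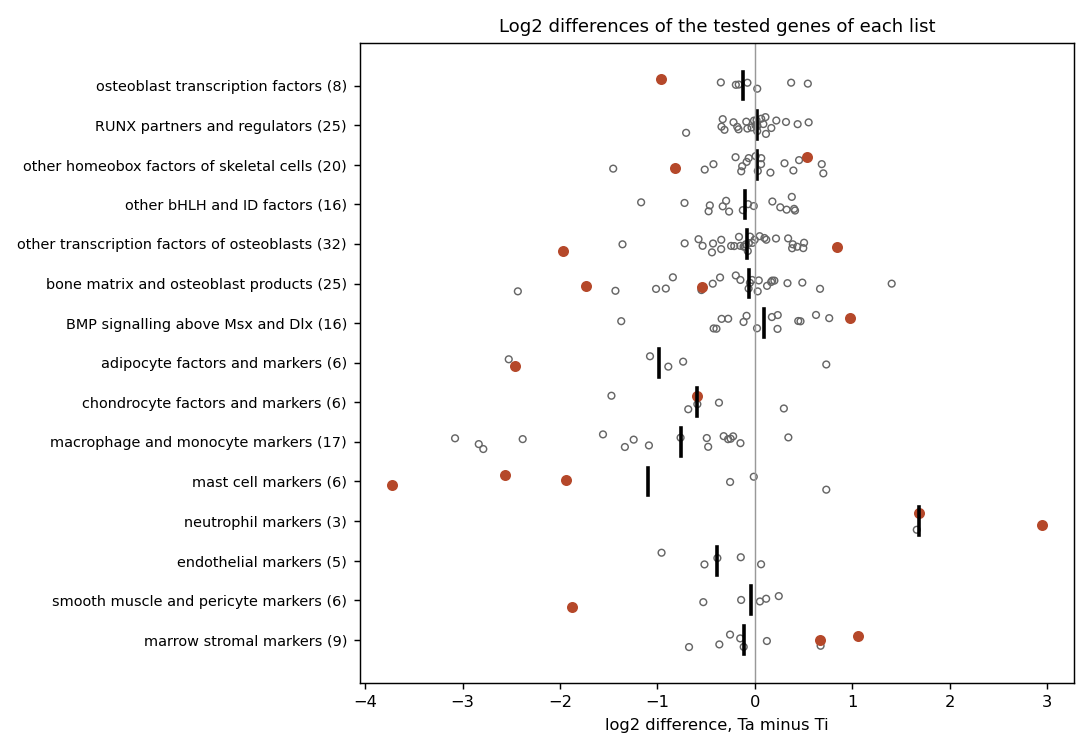
Log2 difference, Ta minus Ti (x axis), of every tested gene of each list (y axis, number tested in brackets); filled red points passed limma's adjusted threshold, open points did not, and black bars are list medians. The median of the 8 osteoblast factors is −0.12 and that of the RUNX partners 0.02, while the adipocyte and macrophage lists lie lower, at −0.98 and −0.76.

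Markers of other marrow cells lay lower or higher on Ta beside the members, as the plot of the lists shows. Of the 17 macrophage and monocyte markers 16 were below 0, with a median of −0.76 and 0 called (limma; 9 at an unadjusted p under 0.05), and their summed scaled signal was 80355 to 206610 on Ta and 222075 to 285033 on Ti. The 6 adipocyte genes tested had a median of −0.98 and summed signals of 8646 to 19424 on Ta and 28954 to 56675 on Ti. Of them 5 were below 0, and Lpl fell by 2.46 (limma, adjusted p = 0.0453). The other 1, Klf15, had every Ta array above every Ti array without passing (limma, difference 0.73, adjusted p = 0.0523). The 6 chondrocyte genes tested had summed signals of 2923 to 3292 on Ta and 4098 to 5344 on Ti. Of them 5 were below 0, and Sox5 fell by 0.59 (limma, adjusted p = 0.0439). The other 1, Sox9, was above 0 by its brightest probe (limma, difference 0.30, adjusted p = 0.108), while its other probes gave −0.56 and −0.65.

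Of 6 mast cell genes tested 3 passed, all lower: Cma1, Kit, which fell by 2.56, and Cpa3, which fell by 1.93 (limma, adjusted p = 0.0352, 0.0487 and 0.0408). The Ti mean of Cma1 was 3.49-fold above the lowest signals detected on the Ta arrays, again not a strict bound. Cma1 was detected on 0 of 3 Ta arrays and entered the test through Ti alone, and Cpa3 was detected on 1 of 3 Ta arrays, so most of their Ta values are not above background. Hdc, the histamine-forming enzyme, lay higher on Ta on every array without passing (limma, difference 0.73, adjusted p = 0.0564, with 0.86 and 0.0393 for its second probe), and Fcer1a and Gata2 differed by −0.25 and −0.01. The summed mast cell signal was 639 to 686 on Ta and 612 to 722 on Ti. In every list sum given here the brightest probes weigh most. Hdc was the brightest mast cell gene on every array, with mean scaled log2 signals of 9.12 on Ta and 8.39 on Ti. The overlap of the mast cell sums therefore does not describe Kit, Cma1 or Cpa3. Of 3 neutrophil genes tested S100a8 rose by 2.95 and Camp by 1.68 (limma, adjusted p = 0.0447 and 0.0453). Mpo lay higher on every Ta array without passing (limma, difference 1.66, adjusted p = 0.0517), and was detected on 2 of 3 Ti arrays. The neutrophil sums were 262 to 617 on Ta and 82.2 to 135 on Ti, while S100a9, Elane, Ltf and Ngp were not well above background. Among the vessel markers, 0 of 5 endothelial genes passed (limma, with 1 at an unadjusted p under 0.05). Of the 5, 4 were below 0, and the median was −0.39. The endothelial sums, 1716 to 2027 on Ta and 1710 to 1989 on Ti, rest mostly on Vwf, the 1 gene above 0. Its mean scaled log2 signals were 10.69 on Ta and 10.62 on Ti, so these sums do not describe the other 4 genes. In the smooth muscle and pericyte list Cspg4 fell by 1.87 (limma, adjusted p = 0.0422), while 3 of the 6 tested genes were above 0 and the median was −0.05, with sums of 25461 to 27117 on Ta and 29269 to 32720 on Ti.

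In the marrow stromal list Cxcl12 and Thy1 rose by 1.06 and 0.67 (limma, adjusted p = 0.0453 and 0.0439), and the second Thy1 probe gave 0.36 without passing (limma, adjusted p = 0.166). Of the 9 tested, 5 were below 0, with a median of −0.12, and in Col3a1 and Eng every Ta array lay below every Ti array (limma, differences −0.68 and −0.37, adjusted p = 0.0663 and 0.0523). The stromal list had sums of 154697 to 164077 on Ta and 154877 to 161244 on Ti. No lymphoid or erythroid gene could be tested (0 of 8), and 6 of these 8 were detected on none (0) of the arrays. The macrophage, adipocyte, chondrocyte, neutrophil and smooth muscle sums did not overlap between the groups. Neither did the sums of the RUNX partners, 62164 to 67627 on Ta and 58515 to 61508 on Ti. The BMP list, with 83602 to 89282 on Ta and 77172 to 81113 on Ti, did not overlap either. Among all single genes 35.8% had no overlap, Dlx5 being 1 of them. The part of other marrow cells in the differences of Dlx5 and the remaining members was not tested.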

How the data were processed

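Each deposited file holds the linear spot intensities of 1 array. Per the file headers, Agilent Feature Extraction 12.0.3.1 subtracted the background and detrended each array, and did not scale the arrays to each other. Version 12.0 and limma are named in the submitters' processing notes. The series' value table equals this processed signal, so it gave no alternative. Values of Ta replicate 2 and of Ti replicate 3 were deposited with no more than 3 significant digits, and the scanner marked Ti replicate 2 for evaluation.

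The log2 processed signal was scaled to the 75th percentile of the 58717 non-control spots of each array. Outlier spots were left out and spots of 1 probe averaged. Probes well above background, in most of their spots, on at least 3 of the 6 arrays and with a value on every array were kept (25756), and a gene took its brightest probe. Names came from RefSeq (GRCr8) by accession, symbol or synonym for 30650 probes, and from the file of Ta replicate 1 otherwise. Groups were compared with limma 3.58.1 under R 4.3.3 (lmFit and eBayes, two-sided tests), and p-values were adjusted by Benjamini-Hochberg over all genes, with a threshold of 0.05. SE is limma's moderated standard error. The fit was tested on simulated data. There, a log2 change of 1 was recovered in 29 of 50 genes and a change of 2 in 45 of 50.

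Named beside the members were up to 4 called genes per list with the largest differences, or the 2 largest in regulator and product lists with none called, 8 further genes whatever their result (Col1a1, Alpl, Spp1, Ibsp, Bglap, Cbfb, Dlx6 and Twist2), and the 3 genes nearest to each member by profile. Ptprc and the stromal markers named for the cell type, and the paralogs Dlx1, Dlx2 and Msx3, were added after their values were seen. So were Mepe, Ifitm5, Hdc, Fcer1a, Gata2, Col3a1, Eng, Mpo, Grem1, Klf15, Sox9 and Vwf. The members and lists were chosen with earlier results of these data known. The deviations of same-numbered arrays correlated at 0.06, 0.13 and −0.18, which gave no sign of a pairing by replicate number. So few arrays cannot exclude such a pairing. P-values measure the spread between these cultures, and their number limits the precision. The alternatives run were quantile and median scaling, normexp with an offset of 50, other filters, the replicate number or slide row as a block, trend and robust settings, array weights, the mean of a gene's probes, rounding to 3 digits, leaving out each array in turn and a threshold on the unadjusted p.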

Additional observations from a re-analysis of the deposited data

How the results depend on the processing

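The 1 member called, Dlx5, kept its direction under every alternative run, and the 8 members gave 6 reversed values among 148 under alternatives, all in Sp7 and Dlx3. Sp7 turned to −0.23 with slide row as a block. Dlx3 turned to −0.011 with median scaling, −0.26 with array weights, −0.072 with slide row as a block, −0.14 without Ta replicate 3 and −0.11 without Ti replicate 2, in a range of −0.14 to 0.13 with an array left out. The number of members called was 0 with no filter on dim probes, 0 with slide row as a block, 5 with array weights (Runx2, Dlx5, Msx1, Msx2 and Twist1; 10184 of all 19601 genes were called there) and 4 at an unadjusted p under 0.05. Leaving out an array gave 0 to 2 called members, 0 without Ta replicate 2 or 3 or Ti replicate 1 or 3, and 2 (Dlx5 and Msx2) without Ta replicate 1. At an unadjusted p in limma, these settings with 0 calls gave 2 to 4 members. Of the 9 member probes, 1 was called, 0 with no filter (3 unadjusted), and 0 to 2 with an array left out. The array weights ran from 0.32 to 7.35, with the highest on Ta replicate 2. The cause of these changes was not tested.

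The replicate number as a block, though a pairing by number was not established, gave 0 called members (3 unadjusted), 0 called member probes (4 unadjusted) and 8 called genes (limma).

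Over all genes, the 808 calls became 2659 with normexp, 10184 with array weights, 2103 with trend and robust settings and 5872 at an unadjusted p, and 0 with no filter (5814 unadjusted) or with slide row as a block (3837 unadjusted). Leaving out an array gave 0 to 3218 calls: 3218 without Ta replicate 1, 1561 without Ti replicate 2, and 0 without any other array (3815 to 4472 unadjusted, limma). Signal over background limits Sp7, which was well above it on 1 Ti array. Its signals on the other Ti arrays, 3.80 and 3.89, already lay above the lowest detected signals there, 3.60 and 3.68, so a floor, an alternative chosen after seeing the data, could not alter its difference.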
